A study of Mus musculus with 4 samples.

Results

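The interleukin genes and their receptors were read in livers with a hepatic deletion of Ubc13 and in control livers. Members were chosen by a rule on names, set with earlier results of these data known. It took every gene whose mouse symbol is Il followed by a digit, and 12 others. These were Ebi3, Lifr, Osmr, Csf1, Csf1r, Csf2ra, Csf2rb, Csf3r and the kinases Irak1, Irak2, Irak3 and Irak4. The rule found 95 genes among the 56953 rows of the deposited count table. Of these, 45 passed a filter on low counts and were tested, 28 had at least 1 count but were too low to test, and 22 had 0 counts in all 4 libraries.

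The deletion group holds 2 libraries from Ubc13 flox/flox mice labelled Alb positive, with the genotype named as hepatic Ubc13 deletion, and the control group holds 2 libraries from Ubc13 flox/flox mice labelled Alb negative and called WT. Both groups carry the floxed alleles, were on a normal diet and were 2 months old. The labels do not spell out the Alb transgene. Albumin-driven Cre, the usual one of that name, acts in hepatocytes and leaves the gene intact in macrophages, lymphocytes and endothelium. Nothing in the labels says that replicates 1 and 2 of a group were different animals, so the p-values measure the spread between these libraries. Ubc13, encoded by Ube2n, is the enzyme that builds K63-linked ubiquitin chains, which relay signals from interleukin 1 and Toll-like receptors through TRAF6 to NF-kB.

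Interleukins are secreted proteins through which immune and tissue cells signal to each other. Receptors of the interleukin 1 family pair a ligand-binding chain with the shared chain Il1rap and signal through MYD88 and the IRAK kinases. Receptors of the interleukin 6 family share gp130 (Il6st) and those for interleukins 2, 4, 7, 9, 15 and 21 share the common gamma chain (Il2rg); both classes signal through JAK kinases and STAT factors. In the liver, interleukin 6 and interleukin 1 are known as the drivers of the acute phase response, in which hepatocytes switch their secreted proteins.

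Total counts were 16270424 to 17800138 per library, so 3 counts, taken as the floor, were worth 0.169 to 0.184 CPM, the count per 1e6 reads before scaling. Ube2n had 5.88 and 5.97 CPM in the deletion libraries, against 41.3 and 44.9 CPM in the controls (log2 fold change -2.86 ± 0.16, edgeR adjusted p = 0.00188). Libraries differed in sex-linked RNA. Xist had 9590 and 3896 counts in deletion replicates 1 and 2, against 9 and 2 in the controls, and the 4 Y-linked genes summed to 0 and 90.3 CPM in deletion replicates 1 and 2, against 143 and 152 CPM in the controls. Deletion replicate 2 held both Xist and Y-linked RNA, and deletion replicate 1 had 0 CPM of the Y-linked genes. The 2 deletion libraries were thus not both from the same animal, whatever the labels leave unsaid. Every difference below runs along with the difference in sex-linked RNA between the groups, and the parts of genotype and sex cannot be told apart. The labels name liver as the tissue, while their library protocol speaks of primary hepatocytes. Albumin took 4.87% of the counts of each deletion library, against 10.8% and 10.3% in the controls, and 10 Kupffer cell markers summed to 929 and 748 CPM in the deletion libraries, against 449 and 627 CPM in the controls, so RNA of macrophages was present in all 4. Fewer cells of a type and less RNA per cell cannot be told apart in such bulk samples.

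Among the 45 tested members, 4 were higher in the deletion livers (Il17rb, Il3ra, Il1rn and Osmr) and 3 were lower (Lifr, Il1rap and Il6ra). The threshold was an edgeR p under 0.05 after Benjamini-Hochberg adjustment over all 14600 genes tested. Members called made up 15.6% of those tested, against 6.57% of all tested genes; 8.89% were called higher and 6.67% lower, against 4.41% and 2.16% of all tested genes. All 7 called members but 1 code for receptor chains, and the exception, Il1rn, codes for a receptor antagonist. Receptor genes also made up 30 of the 45 tested members and ligands 9, so the calls do not set receptors apart from ligands. Of 39 ligand genes 9 were tested and 0 were called by edgeR (3 higher and 0 lower at an unadjusted p under 0.05; 1 higher with DESeq2, 0 with limma-voom). At an unadjusted p under 0.05 by edgeR, 2038 of all 14600 genes tested were higher and 1528 lower. Of the 45 members it was 17 and 5. The median log2 fold change of the tested members was 0.48, against -0.00 for all genes tested. Groups did not overlap in 33 of the 45 (73.3%), as in 56.0% of all tested genes. The filter matters for such counts, because 5 of the 45 passed it through the deletion libraries alone (Il7, Il7r, Il21r, Il18rap and Il1rl2) and 1 through the controls alone (Il12rb1). With library sizes alone as scaling, which moves the median of all genes to 0.29, 14 members were called higher and 3 lower. Of all genes called, 88.5% were then higher, against 67.2% with the scaling used here. With the male RNA share of each library as a covariate, each of the 7 lost its call (adjusted p 0.103 to 0.570), in a fit with 1 residual degree of freedom; that share was 0 and 0.613 in the deletion libraries, against 0.969 and 1.03 in the controls. In that fit the log2 fold changes were 2.83 for Il17rb, 2.16 for Il3ra, 0.99 for Osmr, -2.88 for Lifr and -1.69 for Il1rap, close to or beyond their values without the covariate, while Il1rn at 0.84 and Il6ra at -0.77 were nearer 0.

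**Figure D1:**
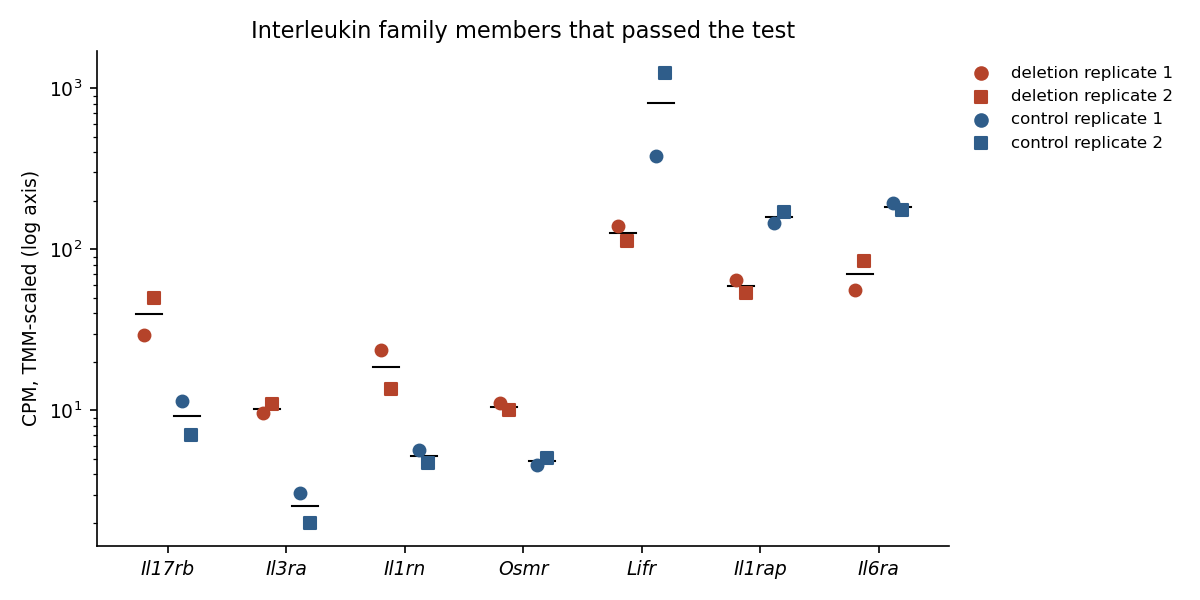
Scaled CPM (log axis) of the 7 members that passed the test, in the deletion libraries (red, left) and the control libraries (blue, right); circles are replicate 1, squares replicate 2 and bars the group means. The groups do not overlap for any of the 7, and the control libraries of Lifr lie 3.26-fold apart.

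Opposite changes stood side by side in the interleukin 1 family: the antagonist rose and the shared receptor chain fell. Il1rn, whose protein occupies the interleukin 1 receptor without signalling, had 23.9 and 13.5 CPM in deletion replicates 1 and 2, against 5.68 and 4.74 CPM in control replicates 1 and 2. Both deletion libraries lay above both controls, deletion replicate 1 the higher of them. Its mean was 18.7 ± 7.3 CPM in the deletion livers and 5.21 ± 0.66 CPM in the controls (SD, n = 2 each), a log2 fold change of 1.84 ± 0.32 (SE, adjusted p = 0.0284). The call was lost without deletion replicate 1 (log2 fold change 1.36, adjusted p = 0.0781), and with limma-voom (adjusted p = 0.0514). Il1rap, the chain that interleukins 1, 33 and 36 all need for signalling, had 64.1 and 53.7 CPM in the deletion libraries, against 146 and 170 CPM in the controls. Its level in the deletion livers was 2.69-fold lower, with no overlap (log2 fold change -1.43 ± 0.17, adjusted p = 0.0103). Without deletion replicate 2 it no longer passed (adjusted p = 0.0594). The annotated gene Gm20319 shares exon bases with Il1rap on the opposite strand and was lower too, with 17.6 and 16.8 CPM in the deletion libraries, against 56.8 and 41.6 CPM in the controls (adjusted p = 0.0130). Whether the counting used strand is not given, so reads of these genes cannot be told apart.

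Il1rn lies on chromosome 2 (24336853 to 24351494, plus strand) and Il1rap on chromosome 16 (26581704 to 26730117, plus strand) of GRCm38. Their promoters are shown as the pair that changed in opposite directions, each from 250 bases before the RefSeq start to 30 bases from it on (GRCm38.p6, 5' to 3'). The Il1rn window, 1 of 3 for that gene, is chr2:24336610-24336889 and the Il1rap window is chr16:26581455-26581734, both on the plus strand. Capitals mark a match to the AP-1 motif TGANTCA, searched on both strands together with an NF-kB motif (GGG, any 2 bases, TTTCC) and a STAT motif (TTCNNNGAA).
Il1rn: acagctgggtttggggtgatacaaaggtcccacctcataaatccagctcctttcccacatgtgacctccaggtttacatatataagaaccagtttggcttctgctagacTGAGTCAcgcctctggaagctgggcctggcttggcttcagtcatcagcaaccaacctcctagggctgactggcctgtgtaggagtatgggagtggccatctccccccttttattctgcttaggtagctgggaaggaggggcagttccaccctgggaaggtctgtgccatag
Il1rap: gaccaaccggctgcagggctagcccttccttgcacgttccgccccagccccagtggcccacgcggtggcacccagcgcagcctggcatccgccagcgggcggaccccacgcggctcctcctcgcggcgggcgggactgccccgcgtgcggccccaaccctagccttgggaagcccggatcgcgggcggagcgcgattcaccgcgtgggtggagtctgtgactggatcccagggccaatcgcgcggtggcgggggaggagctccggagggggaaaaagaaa
The Il1rn window holds TGAGTCA at bases 110 to 116, counted from 1 at its 5' end, and the Il1rap window holds none of the 3 motifs. Another of the Il1rn windows holds GGGTTTTTCC, a match to the NF-kB motif that 1.54% of 32851 promoter windows share.

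The ligands of the family showed little. Il1a, which codes for a cell-bound interleukin 1, had 3.52 and 2.06 CPM in the deletion libraries, against 3.70 and 2.61 CPM in the controls, which overlapped (adjusted p = 0.829). Il18, whose product activates lymphocytes, lay at 9.18 and 8.95 CPM in the deletion libraries, against 10.4 and 7.56 CPM in the controls (adjusted p = 0.985). For Il33, the alarmin released from damaged cells, the libraries did not overlap, with 4.07 and 3.71 CPM in deletion livers and 2.34 and 1.44 CPM in controls, but its log2 fold change of 1.03 ± 0.36 did not pass (adjusted p = 0.155). Il1b, the secreted interleukin 1, was too low to test, at 25 and 9 counts in the deletion libraries and 9 and 8 counts in the controls. The interleukin 36 genes were near 0: Il1f6 had 3 and 5 counts in the deletion libraries and 0 and 0 in the controls, and Il1f9 had 4 and 24 counts in the deletion libraries and 0 and 1 in the controls. Most of the Il1f9 counts came from deletion replicate 2.

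Il1r1, the signalling receptor of interleukin 1, differed more between replicates than between groups. It had 38.8 and 90.9 CPM in deletion replicates 1 and 2, against 75.7 and 155 CPM in control replicates 1 and 2, and the groups overlapped (log2 fold change -0.83 ± 0.47, adjusted p = 0.346). Without control replicate 1 it was called lower (log2 fold change -1.26, adjusted p = 0.0204), and without control replicate 2 its log2 fold change was -0.22 (adjusted p = 0.750). The interleukin 36 receptor Il1rl2 and the interleukin 18 co-receptor Il18rap had log2 fold changes of 0.69 ± 0.57 and 0.94 ± 0.54 and did not pass. The decoy receptor Il1r2 had 3 and 6 counts in the deletion libraries and 1 and 1 in the controls, and the interleukin 18 receptor Il18r1 had 10 and 3 in the deletion libraries and 9 and 2 in the controls. Il1rl1, the interleukin 33 receptor, had 0 and 0 counts in the deletion libraries and 1 and 2 in the controls.

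Among the soluble inhibitors, Il18bp, which binds interleukin 18 and blocks it, had 29.6 and 26.1 CPM in the deletion libraries, against 10.5 and 17.3 CPM in the controls. Both deletion libraries were above both controls, yet the log2 fold change of 1.00 ± 0.25 did not pass (adjusted p = 0.0724). Without control replicate 2 it did (log2 fold change 1.40, adjusted p = 0.000988), and without control replicate 1 it was at 0.68 (adjusted p = 0.077). Il18bp shares exon bases with Numa1 on the opposite strand.

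The 4 IRAK kinases carry the signal from MYD88 to TRAF6. Irak3, the member that restrains the others and is known from macrophages, had 9.07 and 3.40 CPM in deletion replicates 1 and 2, against 0.925 and 1.24 CPM in the controls. Deletion replicate 1 stood 2.67-fold above deletion replicate 2, and both lay above the controls. With all 4 libraries its log2 fold change of 2.52 ± 0.56, the highest among the tested members, did not pass (adjusted p = 0.0538). It passed without deletion replicate 2 (3.06, adjusted p = 0.0268), control replicate 1 (2.32, 0.0176) or control replicate 2 (2.74, 0.00618), but was at 1.64 without deletion replicate 1 (adjusted p = 0.219). Irak4, the kinase that starts the cascade, had 21.4 and 22.2 CPM in the deletion libraries, against 13.0 and 13.7 CPM in the controls (log2 fold change 0.70 ± 0.15, adjusted p = 0.0533). Replicates of Irak4 lay close together, and the call appeared without control replicate 2 (0.74, adjusted p = 0.0441). Irak3 shares exon bases with Tmbim4, and Irak4 with Twf1, on the opposite strand. Irak1, which acts after Irak4, had 67.6 and 65.4 CPM in the deletion libraries, against 55.8 and 62.8 CPM in the controls (log2 fold change 0.17 ± 0.15, adjusted p = 0.545). Irak2 overlapped between the groups (-0.09 ± 0.16, adjusted p = 0.788). By edgeR 0 of the 4 were called. At an unadjusted p under 0.05 it was 2 higher and 0 lower, by DESeq2 1 and 0, and by limma-voom 0 and 0. Of all 14600 genes tested, 2038 were higher and 1528 lower at that unadjusted threshold by edgeR.

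In the gp130 family the shared chain overlapped between the groups while 2 of its partner chains fell and 1 rose. Il6st (gp130) had 132 and 125 CPM in the deletion libraries, against 119 and 142 CPM in the controls. The deletion libraries lay between the controls (log2 fold change -0.02 ± 0.16, adjusted p = 0.954). Its sign turned with library-size scaling (0.27) and without control replicate 2 (0.11) or deletion replicate 2 (0.02).

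Il6ra, the chain that binds interleukin 6 and makes a hepatocyte responsive to it, had 55.9 and 84.7 CPM in the deletion libraries, against 193 and 175 CPM in the controls. Both deletion libraries were below both controls, and the mean fell to 70.3 ± 20.3 CPM in the deletion livers, against 184 ± 13 CPM in the controls (SD, n = 2 each). Its log2 fold change was -1.39 ± 0.23 (adjusted p = 0.0248), a level 2.61-fold lower. The call was lost without deletion replicate 1 (log2 fold change -1.13, adjusted p = 0.0602).

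Lifr, the receptor chain for leukaemia inhibitory factor, was the most abundant member and the one that fell furthest. It had 140 and 112 CPM in the deletion libraries, against 380 and 1240 CPM in control replicates 1 and 2. The controls were 3.26-fold apart and both lay above the deletion libraries. The log2 fold change was -2.68 ± 0.54 (adjusted p = 0.0419), and it was -1.59 without control replicate 2 and -3.30 without control replicate 1, so the size of the fall rests on which control is used. Without deletion replicate 1 or 2 the call was lost (adjusted p = 0.0972 and 0.177). A list of 7 hepatocyte markers had a median log2 fold change of -0.70, with Ttr at -1.59, Alb at -1.41, Hnf4a at -0.21 and Apob at -0.14; their sum, mostly Alb, was 61739 and 58112 CPM in the deletion libraries, against 146155 and 140627 CPM in the controls. Of them 0 were called higher and 1 lower by edgeR (0 and 5 by unadjusted p, 0 and 5 by DESeq2, 0 and 2 by limma-voom), and their part in the lower Il6ra, Lifr and Il1rap was not tested. Of all 14600 genes tested, 2038 were higher and 1528 lower at an unadjusted p under 0.05 by edgeR.

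Osmr, the oncostatin M receptor chain, changed the other way. It had 11.05 and 10.04 CPM in the deletion libraries, against 4.56 and 5.08 CPM in the controls, with close replicates in both groups. Its level was 2.18-fold higher (log2 fold change 1.13 ± 0.23, adjusted p = 0.0430), and the call was lost without deletion replicate 1 or 2 (adjusted p = 0.167 and 0.159), where the fold changes stayed at 1.05 and 1.19. Osmr and Lifr are neighbours on chromosome 15 of GRCm38, Osmr from 6813577 to 6874969 on the minus strand and Lifr from 7090614 to 7197489 on the plus strand, with 215.6 kb between them. Il6ra lies on chromosome 3 (89864059 to 89913196, minus strand).

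The promoters of these neighbours are shown because the genes moved in opposite directions. The Osmr window is chr15:6874284-6874563 on the minus strand, and the Lifr window, 1 of 2 for that gene, is chr15:7129322-7129601 on the plus strand. Capitals again mark TGANTCA.
Osmr: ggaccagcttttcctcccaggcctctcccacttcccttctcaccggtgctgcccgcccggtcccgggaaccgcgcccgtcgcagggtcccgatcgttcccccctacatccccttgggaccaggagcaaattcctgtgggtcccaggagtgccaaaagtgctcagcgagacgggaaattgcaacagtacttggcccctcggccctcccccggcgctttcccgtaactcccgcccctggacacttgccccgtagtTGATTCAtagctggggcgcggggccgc
Lifr: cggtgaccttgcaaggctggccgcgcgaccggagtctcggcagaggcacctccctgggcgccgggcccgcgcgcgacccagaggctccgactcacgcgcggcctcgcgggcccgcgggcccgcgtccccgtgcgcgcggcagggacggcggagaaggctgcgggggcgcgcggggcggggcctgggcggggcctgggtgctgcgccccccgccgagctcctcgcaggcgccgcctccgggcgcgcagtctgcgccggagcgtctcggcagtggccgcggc
Osmr holds TGATTCA at bases 254 to 260, just past the start, and the Lifr window holds none of the 3 motifs. A match describes letters in this window and is not a bound site.

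Set against gp130 in the same library, the partner chains changed their proportions. A 3' library counts about 1 fragment per transcript end, so ratios of scaled counts between genes need no correction for length. Il6ra had 0.424 and 0.678 times the CPM of Il6st in the deletion libraries, against 1.62 and 1.23 times in the controls. For Lifr the ratio to Il6st was 1.06 and 0.899 in the deletion libraries, against 3.18 and 8.76 in the controls. Osmr was at 0.0836 and 0.0804 of Il6st in the deletion libraries, against 0.0382 and 0.0359 in the controls. Lifr stood 12.7-fold and 11.2-fold above Osmr in the deletion libraries, against 83.2-fold and 244-fold in the controls. These ratios come from the genes already tested and are given without a test of their own.

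**Figure D2:**
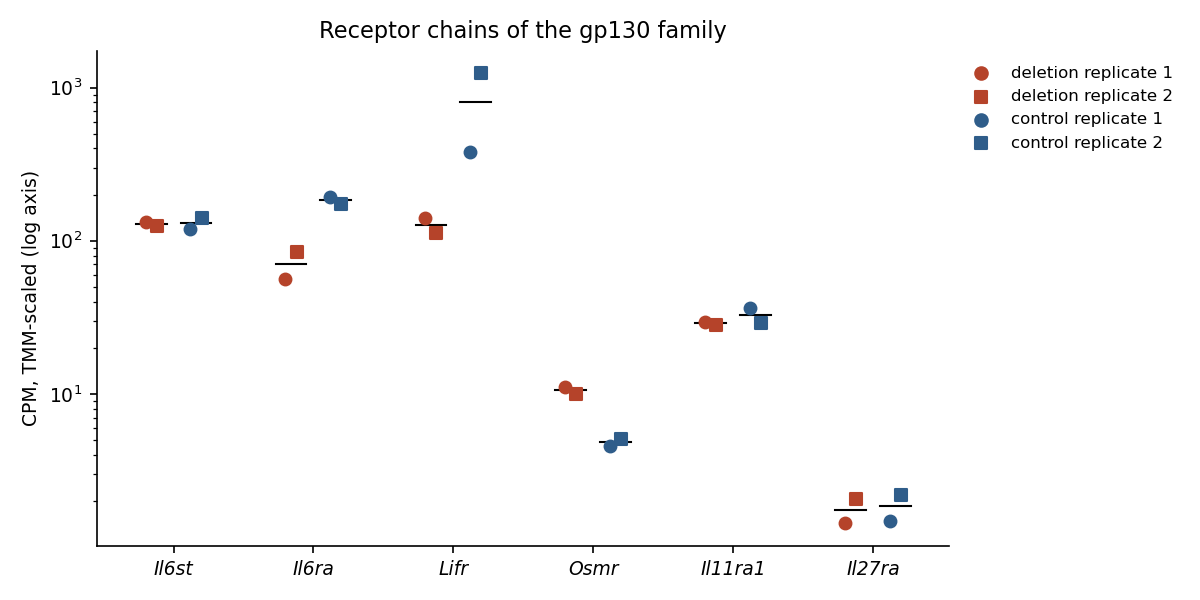
Scaled CPM (log axis) of the 6 tested receptor chains of the gp130 family in the deletion libraries (red, left) and control libraries (blue, right); circles are replicate 1, squares replicate 2, bars the group means. Il6st overlaps between the groups, Il6ra and Lifr are lower in both deletion libraries and Osmr is higher in both.

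The other gp130 members did not pass. Il11ra1, the interleukin 11 receptor, had 29.6 and 28.1 CPM in the deletion libraries, against 36.5 and 29.0 CPM in the controls (adjusted p = 0.565); the near-identical copy Il11ra2 could share its reads. Il27ra and Ebi3, the receptor and a subunit of interleukin 27, overlapped between the groups (-0.07 ± 0.42 and -0.35 ± 0.50 on the log2 scale). The ligands themselves were at the floor: Il6 had 0 and 1 counts in the deletion libraries and 1 and 2 in the controls, and Il11 had 1 and 1 in the deletion libraries and 0 and 0 in the controls. Il27 had 7 and 6 counts in the deletion libraries, against 0 and 2 in the controls.

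The single tested chain of the interleukin 12 family, Il12rb1, is shared by the interleukin 12 and 23 receptors and was low. It had 0.440 and 0.309 CPM in the deletion libraries, against 0.679 and 1.99 CPM in the controls (log2 fold change -1.81 ± 0.68, adjusted p = 0.174), and control replicate 2 held most of its counts. Without control replicate 1 it was called lower (-2.40, adjusted p = 0.0469), and without control replicate 2 it was at -0.85 (adjusted p = 0.646).

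Receptors of the interleukin 3 and colony-stimulating factor group, which govern myeloid cells, were mostly above their control levels, and 1 passed. Il3ra, the ligand-binding chain for interleukin 3, had 9.56 and 10.9 CPM in the deletion libraries, against 3.08 and 1.99 CPM in the controls. That is a 4.01-fold rise with no overlap (log2 fold change 2.00 ± 0.31, adjusted p = 0.0203), from 174 and 212 counts in the deletion libraries and 50 and 29 in the controls. The call was lost without deletion replicate 2 (adjusted p = 0.0928). Il3ra lies on chromosome 14 (14346275 to 14356011, plus strand). Its ligand Il3 had 0 counts in all 4 libraries.

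Csf2rb, the common beta chain that pairs with Il3ra and Csf2ra, had 11.9 and 13.5 CPM in the deletion libraries, against 8.14 and 7.63 CPM in the controls (log2 fold change 0.68 ± 0.20, adjusted p = 0.107). Its close copy Csf2rb2 can share reads with it. Csf2ra, the binding chain for granulocyte-macrophage colony-stimulating factor, had 18.7 and 15.3 CPM in the deletion libraries, against 6.91 and 9.34 CPM in the controls, and its log2 fold change of 1.07 ± 0.23 did not pass (adjusted p = 0.0513). It passed without control replicate 1 (0.86, adjusted p = 0.0453) or control replicate 2 (1.30, adjusted p = 0.00367). Csf3r, the granulocyte factor receptor, was at 4.62 and 3.19 CPM in the deletion libraries, against 1.73 and 2.68 CPM in the controls (adjusted p = 0.251). The 4 chains Il3ra, Csf2rb, Csf2ra and Csf3r stood higher in both deletion libraries than in either control, and of them only Il3ra was called. Groups did not overlap in 56.0% of all tested genes, counting both directions.

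Csf1, the growth factor of macrophages, had 53.5 and 29.7 CPM in deletion replicates 1 and 2, against 11.4 and 20.7 CPM in control replicates 1 and 2. The groups did not overlap, but both varied, and the log2 fold change of 1.38 ± 0.38 did not pass (adjusted p = 0.0898). It passed without control replicate 1 (1.00, adjusted p = 0.0451) or control replicate 2 (1.87, adjusted p = 0.000857), and was 0.88 without deletion replicate 1 (adjusted p = 0.287). Csf1r, its receptor and a marker of macrophages, had 109 and 84.5 CPM in the deletion libraries, against 51.3 and 77.1 CPM in the controls (log2 fold change 0.60 ± 0.24, adjusted p = 0.201; 0.92 and adjusted p = 0.0137 without control replicate 2, 0.33 and 0.435 without control replicate 1). Il34, the other ligand of Csf1r, had 2.31 and 2.32 CPM in the deletion libraries, against 3.52 and 3.30 CPM in the controls (adjusted p = 0.327).

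Receptors such as Csf1r, Csf2ra and Csf2rb are known from macrophages, and macrophage markers were measured beside them. Of the 10 Kupffer cell markers, 1 was called higher and 0 lower by edgeR (7 higher and 0 lower at an unadjusted p under 0.05; 1 higher with DESeq2, 0 with limma-voom; 0 lower with either), with a median log2 fold change of 0.60. Of 10 markers of monocytes and monocyte-derived macrophages, 4 were called higher and 0 lower (7 and 0 unadjusted, 4 and 0 with DESeq2, 3 and 0 with limma-voom), and they summed to 196 and 258 CPM in the deletion libraries, against 83.2 and 82.0 CPM in the controls. Cd9 and Lyz2 made up most of that sum. Cd9 had 68.3 and 159 CPM in the deletion libraries, against 13.1 and 11.7 CPM in the controls. For Lyz2 it was 92.7 and 68.6 CPM, against 55.0 and 52.3 CPM. The 10 markers had a median log2 fold change of 1.18, with Itgam at 0.03. Unadjusted, 2038 of all 14600 genes tested were higher and 1528 lower. The part of macrophages and monocytes in the myeloid receptor values was not tested. Neutrophil markers were low, 8 of them summing to 5.11 and 5.51 CPM in the deletion libraries, against 0.494 and 2.68 CPM in the controls. Of these 2 were tested, with a median log2 fold change of 1.85, and 0 were called by edgeR, DESeq2 or limma-voom. At an unadjusted p under 0.05 by edgeR 2 were higher and 0 lower. Ly6g, also on the list, had 0 counts in all 4 libraries.

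**Figure D3:**
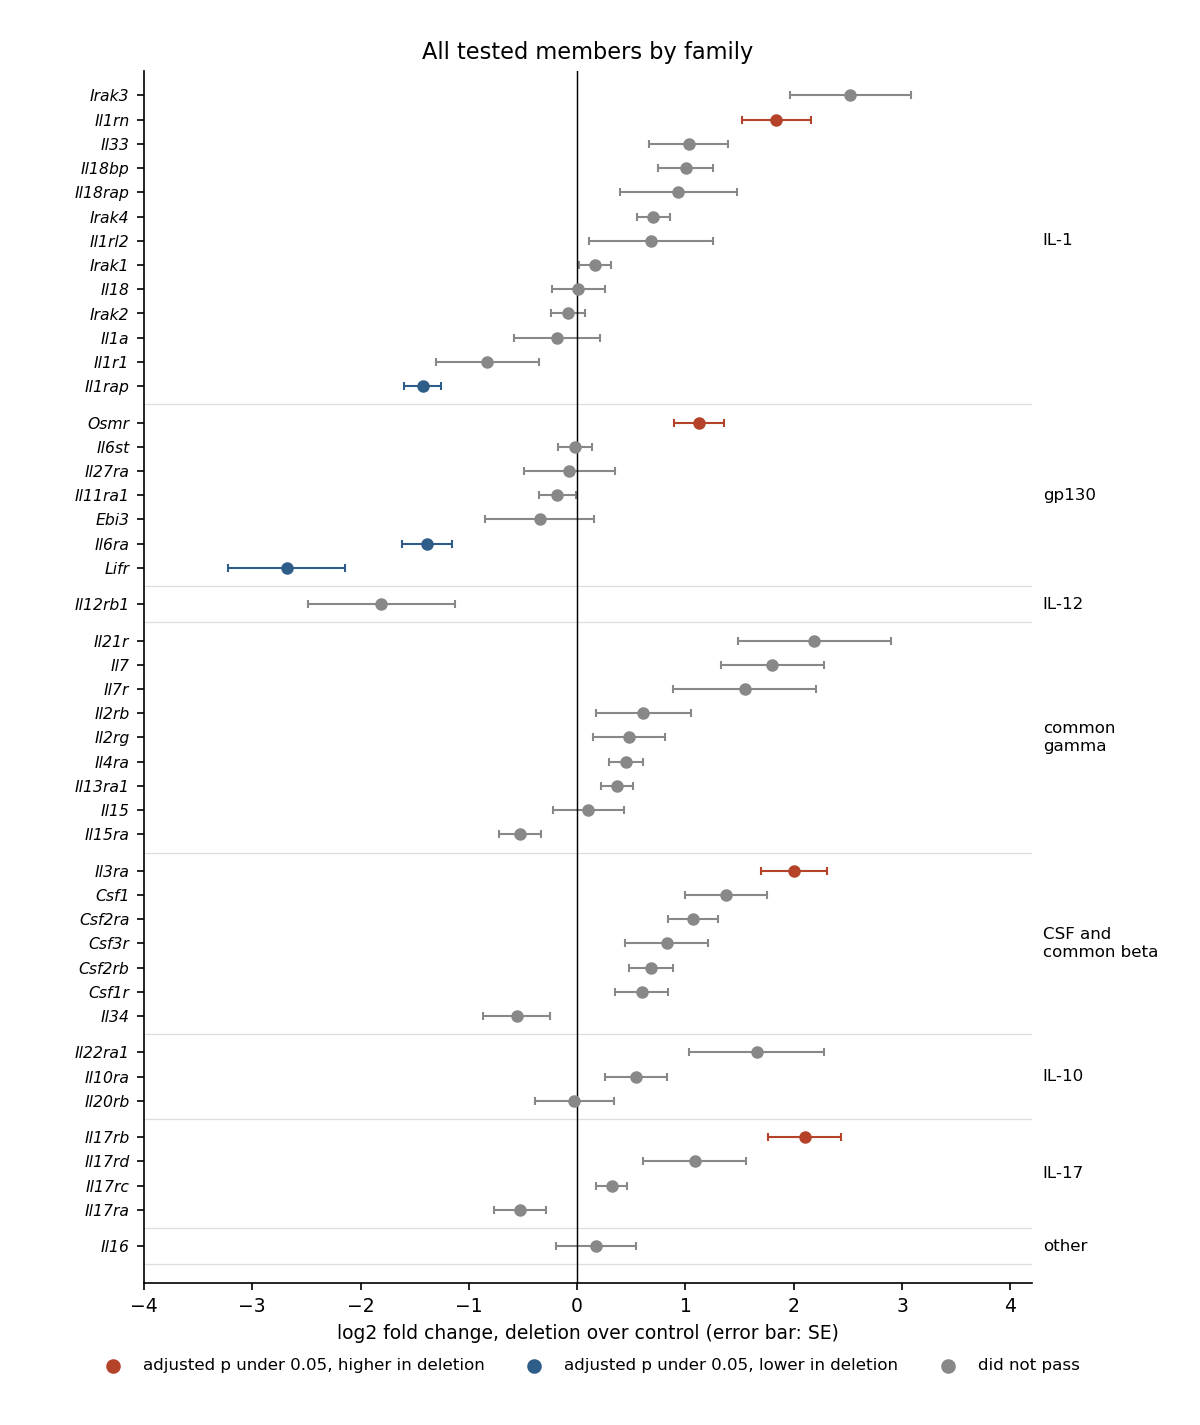
Log2 fold change (deletion over control) with its standard error for the 45 tested members, grouped by receptor family; red and blue mark an adjusted p under 0.05 with a higher or lower level in the deletion libraries, grey did not pass. The called members run from -2.68 (Lifr) to 2.10 (Il17rb), and Irak3 at 2.52 and Il21r at 2.19 are grey with wide errors.

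Of 17 genes in the common gamma chain group, 9 were tested and 0 were called by edgeR (4 higher and 1 lower at an unadjusted p under 0.05; 0 with DESeq2 and 0 with limma-voom). At that unadjusted threshold 2038 of all 14600 genes tested were higher and 1528 lower. Il4ra, a chain of the receptors for interleukins 4 and 13, had 40.6 and 45.4 CPM in the deletion libraries, against 29.0 and 34.0 CPM in the controls (adjusted p = 0.157). Its partner Il13ra1 had 38.6 and 36.1 CPM in the deletion libraries, against 27.9 and 29.9 CPM in the controls (adjusted p = 0.188). Both lay slightly higher in the deletion libraries, and the log2 fold changes were 0.45 ± 0.16 and 0.37 ± 0.14. Il15ra, which presents interleukin 15 to lymphocytes, had 25 and 31.96 CPM in the deletion libraries, against 45.1 and 37.0 CPM in the controls (log2 fold change -0.53 ± 0.19, adjusted p = 0.1605). Il15 itself overlapped, at 3.19 and 2.57 CPM in the deletion libraries and 2.41 and 2.95 CPM in the controls.

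The lymphocyte genes of this group were sparse. Il7, the survival factor of lymphocytes, had 30 and 44 counts in the deletion libraries, against 7 and 10 in the controls, a log2 fold change of 1.80 ± 0.47 (adjusted p = 0.0808). Its receptor Il7r had 11 and 18 counts in the deletion libraries, against 6 and 2 in the controls (adjusted p = 0.220). Il21r, the interleukin 21 receptor, had 26 and 14 counts in the deletion libraries, against 2 and 5 in the controls (log2 fold change 2.19 ± 0.71, adjusted p = 0.128). All 3 passed the filter on low counts through the deletion libraries alone, which favours higher values there. For each the deletion libraries were above the controls, and groups did not overlap in 56.0% of all tested genes. The value of 2.19 is a fit to few control counts. Il2rg and Il2rb, the shared chains, had log2 fold changes of 0.48 ± 0.33 and 0.61 ± 0.44, and the groups overlapped for Il2rb. The 10 markers of T, NK and innate lymphoid cells summed to 9.23 and 5.66 CPM in the deletion libraries, against 4.69 and 7.14 CPM in the controls, and 0 were called in either direction (0 at an unadjusted p under 0.05, with DESeq2 or with limma-voom).

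In the interleukin 17 family the interleukin 25 receptor chain stood out. Il17rb had 29.3 and 49.8 CPM in deletion replicates 1 and 2, against 11.4 and 7.01 CPM in the controls. The deletion libraries lay well above the controls, and deletion replicate 2 was the higher. The mean was 39.6 ± 14.4 CPM in the deletion livers and 9.18 ± 3.07 CPM in the controls (SD, n = 2 each), a 4.298-fold rise (log2 fold change 2.10 ± 0.34, adjusted p = 0.0231). With deletion replicate 2 left out it no longer passed (log2 fold change 1.67, adjusted p = 0.0639). Il17rb lies on chromosome 14 (29996135 to 30008896, minus strand) and shares exon bases with Actr8 on the opposite strand. Actr8 had 31.1 and 38.6 CPM in the deletion libraries and 32.4 and 29.2 CPM in the controls, which overlapped.

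Il17rb is the third of the 4 higher genes whose promoter window holds TGANTCA, so it is shown with the match in capitals (chr14:30008867-30009146, minus strand).
Il17rb: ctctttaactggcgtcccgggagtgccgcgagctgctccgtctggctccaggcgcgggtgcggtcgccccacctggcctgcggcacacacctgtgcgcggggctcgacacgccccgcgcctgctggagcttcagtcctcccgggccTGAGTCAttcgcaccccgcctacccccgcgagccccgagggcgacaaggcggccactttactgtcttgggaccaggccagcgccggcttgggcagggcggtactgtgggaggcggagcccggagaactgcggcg
TGAGTCA sits at bases 147 to 153. Over all windows of the same length, 7.46% hold TGANTCA and 7.83% hold the STAT motif. Of the 4 genes called higher 3 hold TGANTCA, of the 3 called lower 0 do, and of the 28 uncalled tested genes with a window 4 do. Of all 76 members with a window, tested or not, 15 do. These are counts of genes, while 7.46% is a share of windows. A gene can have more than 1 window, and the 4 called higher have 6. The STAT motif was in 0 of the windows of the 7 called genes, and in the window of 1 uncalled tested gene. The motifs were chosen with the calls known, so these counts describe the windows and are not a test.

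The partner chain Il17ra, needed by interleukins 17A and 25 alike, had 22.8 and 24.6 CPM in the deletion libraries, against 26.2 and 42.2 CPM in the controls (log2 fold change -0.53 ± 0.24, adjusted p = 0.251; -0.84 and adjusted p = 0.0181 without control replicate 1, -0.14 and 0.762 without control replicate 2). Il17rb thus stood at 1.29 and 2.02 times Il17ra in the deletion libraries, against 0.434 and 0.166 times in the controls. Il17rc, the partner of Il17ra for interleukins 17A and 17F, had 25.5 and 23.7 CPM in the deletion libraries, against 19.6 and 19.9 CPM in the controls (adjusted p = 0.248). Il17rd, also an inhibitor of fibroblast growth factor signalling, had 1.70 and 3.29 CPM in the deletion libraries, against 0.987 and 1.37 CPM in the controls (1.08 ± 0.48, adjusted p = 0.231). Il17re, the receptor chain for interleukin 17C, was below the filter, with 5 and 1 counts in the deletion libraries and 33 and 9 in the controls. Of the 6 ligands of this family, 5 had 0 counts in all 4 libraries, and Il17d had 4 and 3 counts in the deletion libraries and 5 and 1 in the controls.

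Chains of the interleukin 10 family did not pass. Il22ra1, through which interleukin 22 acts on hepatocytes, had 10.3 and 5.66 CPM in deletion replicates 1 and 2, against 1.05 and 4.05 CPM in control replicates 1 and 2. The groups did not overlap, and the controls were 3.87-fold apart (log2 fold change 1.66 ± 0.62, adjusted p = 0.174). Without control replicate 2 it was called higher (2.92, adjusted p = 0.000808), and without control replicate 1 it was at 0.97 (adjusted p = 0.152). Il10ra, found on leukocytes, had 7.53 and 5.40 CPM in the deletion libraries, against 4.19 and 4.67 CPM in the controls (adjusted p = 0.310). Il20rb overlapped, and Il10rb, the shared second chain, had 10 and 7 counts in the deletion libraries and 7 and 6 in the controls. Il22 and its binding protein Il22ra2 had 0 counts in all 4 libraries, and Il10 had 2 and 1 counts in the deletion libraries and 1 and 3 in the controls.

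The remaining members that reached 5 counts in a library were too low to test. They were Il13ra2, a decoy for interleukin 13, with 8 and 9 counts in the deletion libraries and 6 and 4 in the controls, Il4 with 6 and 7 in the deletion libraries and 7 and 2 in the controls, and Il2ra, the high-affinity chain for interleukin 2, with 1 and 3 in the deletion libraries and 4 and 5 in the controls. Il16, a chemoattractant of CD4+ cells, was tested and overlapped between the groups (log2 fold change 0.17 ± 0.37).

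Genes that act after these receptors were read from lists of textbook members, chosen with earlier results of these data known. Of 24 tested genes of the JAK, STAT, SOCS, MYD88 and TRAF6 relay, 2 rose and 0 fell (7 and 1 by unadjusted p; 2 and 0 by DESeq2; 2 and 0 by limma-voom), with a median log2 fold change of 0.21. Those called, all of them higher, are 8.33% of the list. Of all tested genes 4.41% were called higher and 6.57% in either direction. At an unadjusted p under 0.05 by edgeR, 2038 of all 14600 genes tested were higher and 1528 lower. Among those that rose was Jak3, the kinase bound to the common gamma chain, with 47.7 and 40.6 CPM in the deletion libraries, against 16.5 and 22.6 CPM in the controls (1.18 ± 0.20, adjusted p = 0.0281). Stat3 and its feedback inhibitor Socs3, the factor and brake of gp130 receptors, were at 0.07 ± 0.17 and 0.69 ± 0.21 and did not pass (adjusted p = 0.835 and 0.117). Myd88 and Traf6 were at 0.33 ± 0.16 and 0.22 ± 0.18, which did not pass (adjusted p = 0.270 and 0.508).

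Of 20 acute phase genes that interleukin 6 class cytokines are known to raise, 6 rose and 0 fell (8 and 1 unadjusted, 8 and 0 with DESeq2, 7 and 0 with limma-voom), and the median was 0.39. Those called, all of them higher, are 30% of the list, against 4.41% of all tested genes called higher. Saa1, Saa2, Orm2, Orm3, Lcn2 and Steap4 rose. The amyloid Saa2 had 533 and 254 CPM in the deletion libraries, against 12.5 and 19.2 CPM in the controls, and the oxidoreductase Steap4 had 390 and 254 CPM in the deletion libraries, against 74.0 and 89.0 CPM in the controls. The other 14 ran from -0.50 ± 0.20 (Itih4) to 1.11 ± 0.25 (Hpx). They included Hp at 0.93 ± 0.28 and Orm1 at 0.77 ± 0.36. Below 0 were the fibrinogen chains Fga, Fgb and Fgg, at -0.24 ± 0.25, -0.17 ± 0.24 and -0.33 ± 0.24, among others. The list was not split into genes that answer mainly to interleukin 6 and genes that answer mainly to interleukin 1, the other driver named above. The rises of the 6 called genes stood beside 2.61-fold less Il6ra and Il6 counts of 0 to 2, and how they relate was not tested.

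**Figure D4:**
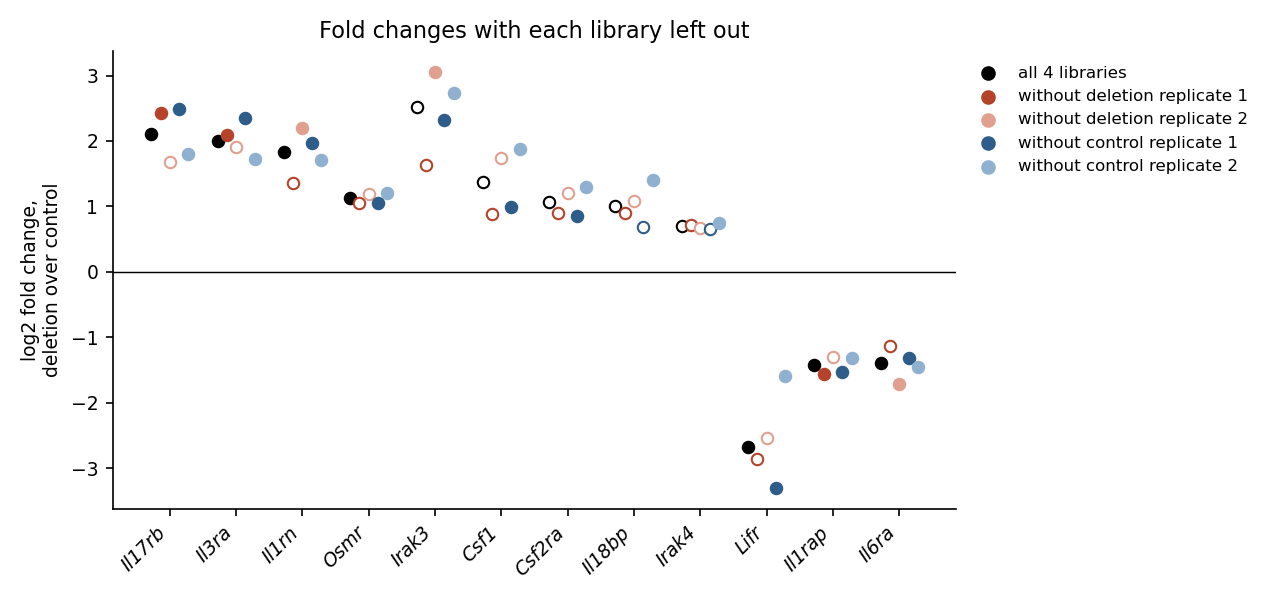
Log2 fold change (deletion over control) of the 7 called members and of 5 near the threshold, with all 4 libraries (black) and with each library left out in turn (colours); filled circles have an adjusted p under 0.05. All circles of a gene lie on 1 side of 0, and Lifr spans -3.30 to -1.59.

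The replicates of the deletion group differed by a median of 0.31 on the log2 scale over the 45 tested members, and those of the control group by 0.46. Only 2 members were more than 2-fold apart between the deletion replicates (Irak3 and Il1r1), and 7 were between the controls, Lifr and Il22ra1 among them. Relative to the control mean, 32 of the 45 were higher in deletion replicate 1, with a median of 0.53. In deletion replicate 2 it was 29 of the 45, with a median of 0.32. These counts were not taken over all tested genes, and 5 of the 45 passed the filter through the deletion libraries alone. In the fit of all 4 libraries 30 of the 45 had a positive log2 fold change, against 7247 of all 14600 genes tested.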

How the data were processed

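Raw counts for the 4 libraries came in 1 table deposited by the authors, with a row per Ensembl gene. Per the labels' protocols, QuantSeq 3' libraries were sequenced single-end, aligned with Bowtie2 and analysed with edgeR (TMM and CPM). Per the submitters' processing notes, the builds are mm10 and GRCm38. Counting program, strand setting and annotation: not given in the sources used here. Symbols were taken by identifier from GENCODE M21, which matched 52029 of 56953 rows; the other 4924 held 0.188% to 0.233% of a library's counts. Replicate counts differed by more than sampling noise (chi-square per degree of freedom 25.3 in the deletion pair, 38.9 in the control pair).

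Groups were compared in R 4.3.3 with the edgeR 4.0.16 quasi-likelihood test (two-sided, genotype only), with TMM scaling and filterByExpr (minimum count 10, total 15), which kept 14600 genes. There were 2 residual degrees of freedom, and the fit was tested on simulated data. CPM are TMM-scaled, and SE was obtained by dividing the size of the log2 fold change by the root of F. With 2 libraries a group an exact two-sided permutation test cannot go below 0.333 and was not used. Alternatives were library sizes alone, RLE size factors, no filter, DESeq2 1.42.0, limma-voom (limma 3.58.1), a replicate block, the male RNA share as a covariate, and each library left out. Named were called members and their partners, those at a log2 fold change of 1 or more, the 10 most abundant, and untested ones with 5 or more counts in a library; a few others near 0 are given for completeness. Members, lists and motifs were chosen with earlier results of these data known. The result of 1 receptor signalling gene is not reported here.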

Additional observations from a re-analysis of the deposited data

How the results depend on the processing

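With DESeq2, 8 members were called higher and 3 lower, and 1647 genes in all, against 4, 3 and 959 in the edgeR fit. Library sizes alone gave 14, 3 and 1764, with 5 receptor signalling genes called against 2. Without a filter, where 73 members were tested, it was 14, 5 and 2768. The male RNA share as a covariate left 0, 0 and 65, with 0 receptor signalling and 2 acute phase genes called against 2 and 6; the fold changes of the 7 members then lay between -2.88 (Lifr) and 2.83 (Il17rb), and those of Il1rn and Il6ra shrank to 0.84 and -0.77. RLE size factors (4, 3 and 960) and limma-voom (3, 3 and 914) stayed close. Leaving out 1 library at a time gave 2 to 11 members called higher, 1 to 6 lower, 343 to 2081 genes in all, 1 to 4 receptor signalling genes and 5 to 10 acute phase genes. Without a control library the lone control is assumed to vary like the deletion group, and the reverse. The sign of the fold change turned under at least 1 alternative for 12 of the 45 tested members, 0 of them called, with fold changes of -0.83 (Il1r1) to 0.61 (Il2rb) on the log2 scale in the edgeR fit.

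The replicate numbers are shared between the groups, but nothing in the labels says that they mark a shared animal, litter or day, and the deviations of the libraries numbered 1 correlated at -0.136 over 14600 genes. With the replicate block, 1 member was called higher, 1 lower and 390 genes in all, with 1 receptor signalling gene; Il17rb, Il3ra, Osmr, Lifr and Il6ra lost their calls (adjusted p 0.0568 to 0.113) at fold changes of 2.08, 2.03, 1.13, -2.45 and -1.41 on the log2 scale, in the order named, close to those without the block. With the crossed pairing, an alternative chosen after seeing the data, it was 10, 3 and 1366. Depth limits the 28 members with counts below the filter, and with 2 libraries a group the error of each value is itself poorly known.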
